A study of Mus musculus with 8 samples.

Results

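Bach2 and Bach1 are the members of a small family of transcription factor genes, and PRDM16 binding around them was read from chromatin immunoprecipitation and sequencing (ChIP-seq) of the embryonic mouse cortex. An enriched region was assigned to a gene when its summit, the base of highest signal, lay in the gene body or within 100 kb of the gene's nearer end with no closer protein-coding gene. By this rule 72 of the 48145 regions in the 4 peak lists belonged to the 2 genes, out of 21887 protein-coding genes. The 2 genes were chosen from the peak calls of these same lists, in which Bach2 had many regions and Bach1 few. The counts and fold enrichments are therefore given as a description, without a test.

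The lists came from whole cortex lysates at E15.5, with 2 ChIP libraries per genotype. The conditional knockout (cKO) embryos were Emx1Ires-Cre; Prdm16flox/flox, in which Cre from the Emx1 locus recombines the floxed alleles in the dorsal telencephalic lineage. The wild-type (WT) embryos were Prdm16 flox/flox without Cre, so all 4 libraries carried the floxed alleles. Emx1 is a gene of the dorsal lineage, and other cells of a whole cortex, such as vessel cells, microglia and interneurons born in the ventral telencephalon, lie outside it. The antibody was donated by another laboratory. The labels do not say whether replicates were separate embryos.

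BACH1 and BACH2 are repressors that carry a BTB domain, which pairs proteins, and a basic leucine zipper, which binds DNA. They act as partners of the small MAF proteins at MAF recognition elements, where they compete with activators such as NRF2. BACH1 is best known as the haem-sensitive repressor of the haem oxygenase gene Hmox1. BACH2 is best known from B and T lymphocytes, where it represses the plasma cell gene Prdm1, and it is also expressed in neurons. PRDM16 itself is a zinc-finger factor of radial glia, the stem cells of the embryonic cortex.

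The cKO replicates 1 and 2 held 4553 and 3088 regions, and the WT replicates 1 and 2 held 13852 and 26652. The genome-wide background, the mean number of fragments over a base, was taken as the lowest local background solved at any peak of a list. It was 2.95 and 2.52 in the cKO replicates, against 0.777 and 1.78 in the WT replicates. The smallest fold enrichment that a list could call at its median background was 3.18 and 3.30 in the cKO replicates, against 3.53 and 3.01 in the WT replicates. Peak names of the cKO lists carry a library prefix that those of the WT lists do not, so what the prefix marks and the genotype cannot be told apart. Around Prdm16, the targeted gene, the rule gave 2 and 2 regions in the cKO replicates, against 16 and 22 in the WT replicates. Peak lists hold no expression, so the tissue label and the loss of PRDM16 were not checked.

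Bach2 lies on chromosome 4 from 32238413 to 32586109 in mm10, a body of 347.7 kb on the plus strand. Bach1 lies on chromosome 16 from 87698954 to 87733346, also on the plus strand, with a body of 34.4 kb. The 250 bases before the start site that RefSeq gives for each gene (GRCm38.p6) are shown to set the annotated promoters beside the regions described below; capitals mark CG dinucleotides.
Bach2, chr4:32417185-32417434: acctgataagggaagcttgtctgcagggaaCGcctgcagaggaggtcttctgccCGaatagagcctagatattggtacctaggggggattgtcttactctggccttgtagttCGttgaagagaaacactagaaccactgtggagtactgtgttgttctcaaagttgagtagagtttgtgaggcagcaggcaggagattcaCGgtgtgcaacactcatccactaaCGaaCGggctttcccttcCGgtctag
Bach1, chr16:87698704-87698953: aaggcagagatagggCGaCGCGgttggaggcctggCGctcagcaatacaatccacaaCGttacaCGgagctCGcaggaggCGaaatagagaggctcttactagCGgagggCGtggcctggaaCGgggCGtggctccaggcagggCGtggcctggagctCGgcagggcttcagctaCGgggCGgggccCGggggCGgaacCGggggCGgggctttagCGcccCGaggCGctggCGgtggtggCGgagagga

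The 2 printed windows differ in composition. The Bach1 window had 69.2% G and C and 25 CG dinucleotides, and the Bach2 window 50.4% and 7, against medians of 55.2% and 10 over the promoters of 17492 protein-coding genes. The Bach1 window ends just before the first base of the gene, whereas the Bach2 window belongs to a start site 179 kb inside the annotated body, since RefSeq also gives longer transcripts. The sequence before the annotated start of Bach2 was not examined. In none of the 4 lists did a region overlap either window. At the Bach2 window the nearest region lay 179 kb away in cKO replicate 1 and 538 kb away in cKO replicate 2, against 5.196 and 5.052 kb in the WT replicates. That region of cKO replicate 1 had its summit 0.158 kb inside the annotated start of Bach2. At the Bach1 window it lay 47.9 kb away in both cKO replicates, against 271 kb in WT replicate 1 and 0.592 kb in WT replicate 2.

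A set of 6 motifs was searched on both strands of these windows, and neither window held any of them. The MAF recognition element of the BACH proteins was found in 0.257% of the 17492 promoters, and the AP-1 core TGANTCA, which that element contains, in 6.22%. The element GAAGATGAG, bound by the distal zinc fingers of EVI1, the closest relative of PRDM16, was found in 0.309%. The nuclear factor I palindrome was found in 0.646%, the proneural E-box CAGATG in 12.6% and the homeodomain site TAATTA in 4.45%. The sequence of the enriched regions was not analysed here.

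Bach2 carried many PRDM16-enriched regions in the WT cortex and almost none in the cKO cortex. The cKO replicates held 1 and 0 regions at Bach2, against 26 and 40 in the WT replicates, so the genotypes did not overlap. This order, with each cKO count below each WT count, was found at 15.7% of protein-coding genes. Most regions lay inside the gene, with 1 and 0 in the body in the cKO replicates and 22 and 35 in the WT replicates. Per 100 kb of gene body, Bach2 had 0.288 and 0 regions in the cKO replicates, against 6.33 and 10.1 in the WT replicates. Over all protein-coding gene bodies the figures were 0.240 and 0.164 in the cKO replicates, against 0.669 and 1.30 in the WT replicates. The density at Bach2 was therefore 9.45 and 7.74 times that of all bodies in the WT replicates, and 1.20 times in cKO replicate 1.

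Both WT lists shared 24 regions at Bach2, and 0 of these 24 overlapped a region of either cKO list. Across the genome 91.5% of the regions shared by both WT lists overlapped none in the cKO. The share at Bach2 thus lies near that of WT regions in general. The number of regions at Bach2 was high, but the gene was chosen by that number. At least 1 region in both WT lists and neither cKO list was found at 16.6% of protein-coding genes, and at least as many as at Bach2 at 0.00914%, which is Bach2 itself and 1 other gene. That gene is Auts2, named here after its values were seen, with 31. In WT replicate 1 Auts2 was also the one gene with more regions than Bach2, with 43, and in WT replicate 2 it had 61. In WT replicate 2, Msi2 with 43 and Tenm4 with 42 also stood above Bach2. With WT replicate 1 left out, the regions of WT replicate 2 that no cKO list held numbered 40.

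**Figure D1:**
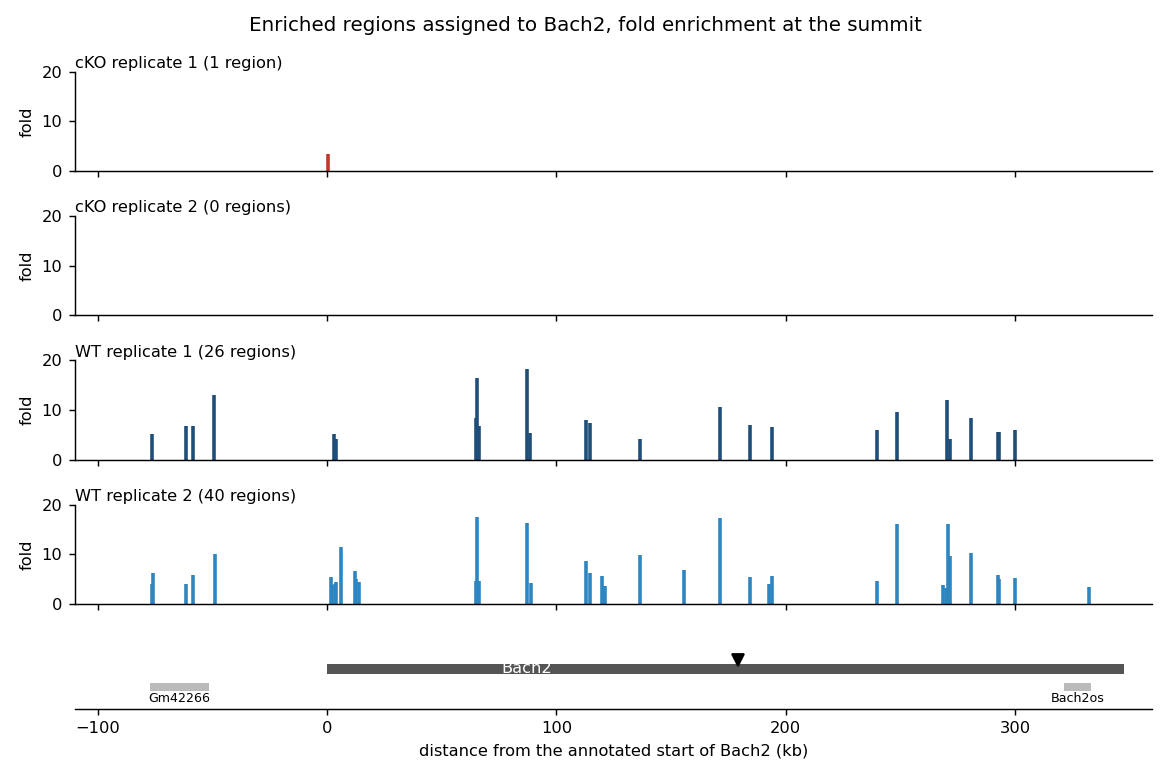
Fold enrichment at the summit (vertical axes) of each region assigned to Bach2, by distance from the annotated gene start in kb, in the 2 cKO and the 2 WT libraries. The lowest panel shows the gene body (dark bar), noncoding genes that hold a summit (light bars) and the start site of the printed promoter (triangle); the cKO lists hold 1 and 0 regions and the WT lists 26 and 40.

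The 24 shared regions ran from 76.2 kb before the annotated start to 300 kb inside the body. Of them, 20 lay in the body and 4 in the flank before the start, and none lay beyond the far end. The last summit stopped 47.7 kb before the end of the gene. Summits joined when within 5 kb of each other formed 17 groups, 14 in the body and 3 in the flank, of which 7 held 2 regions and 10 held 1. Neighbouring summits were 0.418 to 61.0 kb apart, with a median of 9.77 kb. The widest gap followed a pair of weak regions 3.14 and 3.94 kb inside the gene, at 4.62 and 4.37 mean fold, and ended at the pair 65 kb inside it.

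The strongest region at Bach2 lay 87.2 kb inside the gene, on chromosome 4 from 32324977 to 32326731. Its fold enrichment was 18.2 and 16.2 in WT replicates 1 and 2, a mean of 17.2 ± 1.35 (SD, n = 2), from 42 and 53 fragments at the summit. It was also the widest, with 1755 bp. Neither cKO list held a region here.

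The second region, from 32303536 to 32304761 and 65.4 kb inside the gene, reached 16.5 and 17.6 in WT replicates 1 and 2, with 38 and 90 fragments at the summit (17.0 ± 0.768). It joined 3 peaks of replicate 1 with 2 of replicate 2. A weaker shared region lay beside it, from 32302946 to 32303530, with 8.37 and 4.75. These 2 leading regions differed by less than their spread between replicates.

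Next in order were 3 regions farther into the body whose folds were higher in WT replicate 2. The region from 32508409 to 32509549, 271 kb inside the gene, had 12.0 and 16.2 in WT replicates 1 and 2 (14.1 ± 3.00). That from 32409556 to 32410042 had 10.6 and 17.3 (13.9 ± 4.76) and is the strongest near the printed promoter, before its start site. That from 32486496 to 32487300 had 9.63 and 16.1 (12.9 ± 4.59). Their means lie within one another's spread, so these 3 have no firm order.

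The strongest region outside the gene lay 49.3 kb before its start, from 32188800 to 32189702, with 13.1 and 10.1 in WT replicates 1 and 2 (11.6 ± 2.104). The other 3 regions of the flank had mean folds of 6.34, 5.74 and 5.42 and lay 58.5, 76.2 and 61.8 kb before the start. The summits of these 3 weaker regions fell in the noncoding RNA gene Gm42266. In the body, the region from 32519107 to 32519446 had 8.36 and 10.2 (9.29 ± 1.32), and that from 32351158 to 32351568 had 8.02 and 8.63 (8.32 ± 0.431). The region from 32374771 to 32375340 had 4.20 and 9.80 (7.001 ± 3.95), and that from 32509833 to 32510362 had 4.26 and 9.67 (6.97 ± 3.83); in both, WT replicate 1 lay near the lowest fold it called at Bach2. The remaining 14 shared regions, with those of the flank and the start named above among them, had mean folds of 4.37 to 6.84.

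The regions at Bach2, a gene chosen by their number, did not stand out by their height. The median of the mean folds was 6.45 over its 24 shared regions, against 7.46 over all 10090 regions of both WT lists, and 8 of the 24 lay above that median. Its strongest region was exceeded by 681 of the 10090 regions. In 5 of the 24 the fold passed 10 in both replicates. The replicates placed these summits a median of 48.5 bp apart, with a range of 1 to 272 bp, against a median of 56 bp over all shared regions. Folds of the 24 regions in the 2 WT lists had a Pearson r of 0.70 on the log2 scale and a Spearman rho of 0.62, against a rho of 0.61 over all shared regions. These correlations run over regions of the same 2 libraries and describe those libraries. WT replicate 1 had the higher fold in 13 of the 24 regions and WT replicate 2 in 11, whereas over all shared regions WT replicate 1 was higher in 4062 of 10090 (40.3%).

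**Figure D2:**
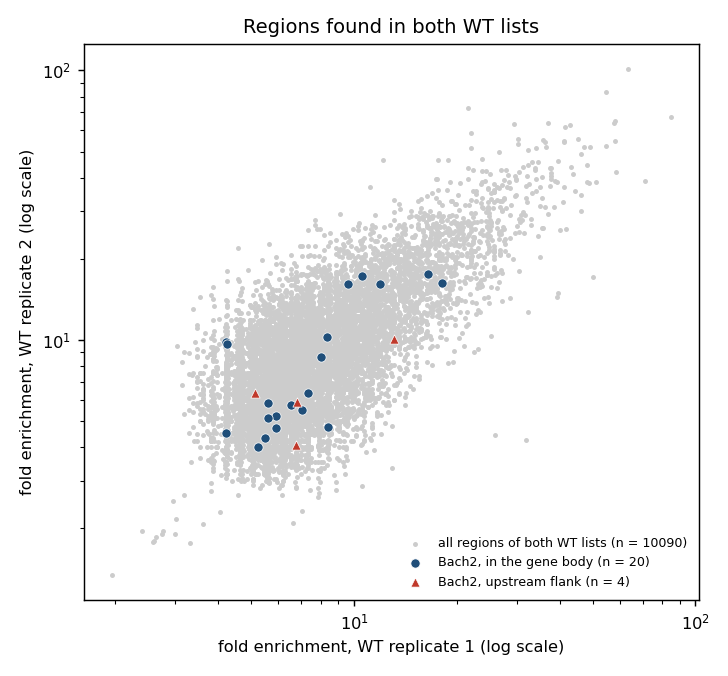
Fold enrichment in WT replicate 1 (horizontal, log scale) and WT replicate 2 (vertical, log scale) of the 10090 regions found in both WT lists, with the 20 regions in the body of Bach2 as circles and the 4 in its flank as triangles. The regions of Bach2 lie within the cloud, with a median of the mean folds of 6.45 against 7.46 for all.

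Both WT folds exceeded both cKO limits in 24 of the 24 shared regions at Bach2, and in 98.8% of all regions of both WT lists. A fold 0.5 times as high as the weaker WT fold would still pass both cKO limits in 8 of the 24, against 44.5% of all. In the other 16, a fold at that level lies under at least 1 cKO limit. The limits hold at the median background of each cKO list, and the background at these loci in the cKO libraries is not known.

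Agreement between the WT replicates was high at Bach2 from the side of the shorter list. All 26 regions of WT replicate 1 overlapped a region of WT replicate 2 (100%), against 78.2% of its regions across the genome. In the other direction 25 of the 40 regions of WT replicate 2 overlapped one of WT replicate 1 (62.5%), against 38.7% across the genome. Bach2 was chosen by its number of peaks in these same lists, and neighbouring regions are not independent. The shares are therefore a description, and their difference from the genome was not tested.

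The 15 regions of WT replicate 2 alone had folds of 3.31 to 11.4 with a median of 4.10, and 14 of them lay in the body. The 25 found in replicate 1 had 3.995 to 17.6 with a median of 5.88. Of the 15, 6 lay within 15 kb of the annotated start, among them the highest, from 32244115 to 32244569, with 38 fragments at the summit. In 13 of the 15 the fold exceeded the 3.53-fold limit of WT replicate 1, which did not call them. The region of WT replicate 2 nearest to the far end, from 32570494 to 32570719 with 3.48-fold enrichment, had its summit in Bach2os, a noncoding RNA gene inside the body.

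The single cKO region at Bach2 was found in cKO replicate 1, on chromosome 4 from 32238476 to 32238678, with 3.48-fold enrichment and 18 fragments at the summit. Its summit lay 0.158 kb inside the annotated start of the gene. Of the 4553 regions of that list 4131 had a higher fold, so it was among the weakest. No region of cKO replicate 2 overlapped it, and the nearest WT regions lay 2.77 kb away in replicate 1 and 1.19 kb away in replicate 2.

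Among genes whose body is 0.5 to 2 times as long, Bach2 stood first in one WT list and next to first in the other. Since Bach2 was chosen by its number of peaks, this rank is a description. The 1061 such genes had a median of 0 regions in each cKO replicate, against medians of 2 and 4 in WT replicates 1 and 2. None had more than Bach2 in WT replicate 1, where the highest had 25, and 1 had more in WT replicate 2. In the cKO replicates 383 of the 1061 had at least as many as Bach2 in replicate 1, and 776 shared its count of 0 in replicate 2.

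**Figure D3:**
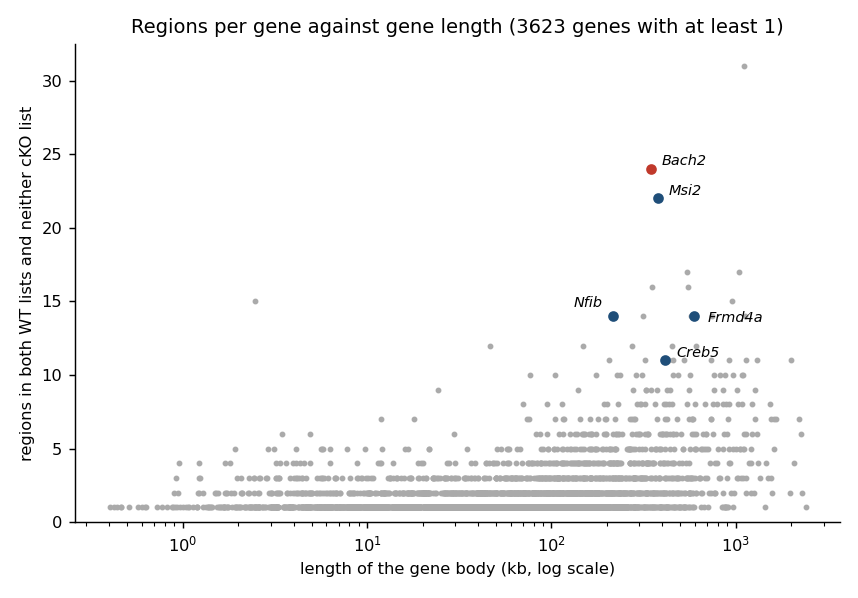
Number of regions in both WT lists and neither cKO list (vertical) against the length of the gene body in kb (horizontal, log scale), for the 3623 genes with at least 1. Bach2, with 24, is marked in red, and 4 of the 5 genes with counts most like it, with 11 to 22, in blue; the point above Bach2 is Auts2 with 31.

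The genes of like length whose counts most resembled those of Bach2 were found by the Euclidean distance over log2(regions + 1) in the 4 libraries, and 4 of the 5 nearest are given. Closest was Frmd4a, which encodes a FERM-domain scaffold protein, at a distance of 0.60, with 1 and 0 regions in the cKO replicates, against 17 and 37 in the WT replicates. Nfib, a nuclear factor I gene, followed at 0.71 with 1 and 0 in the cKO replicates, against 16 and 34 in the WT replicates. Msi2, which encodes an RNA-binding protein of stem cells, came at 1.01 with 1 and 1, against 25 and 43. Creb5, a CREB family gene, came at 1.27 with 0 and 0, against 16 and 30. In both WT lists and neither cKO list these 4 genes had 14, 14, 22 and 11 regions in this order.

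The genes on either side of Bach2 carried few regions. Map3k7, the kinase gene before Bach2 and 215 kb from it, had 0 and 1 regions in the cKO replicates, against 2 and 6 in the WT replicates. Just outside the rule, a region found in both WT lists 132 kb before Bach2, with 5.38 and 7.34-fold enrichment, was assigned to Map3k7. Just inside it, the farthest regions lay 76.3 kb away in WT replicate 1, with 5.14-fold enrichment, and 76.5 kb away in WT replicate 2, with 4.10-fold. Gja10, a connexin gene 14.8 kb beyond the far end, had 0 regions in all 4 lists.

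Bach1 carried few regions in either genotype. The cKO replicates held 1 and 1 regions at Bach1, against 0 and 3 in the WT replicates, so the genotypes overlapped. None was shared by both WT lists, and without WT replicate 1 there were 3 in WT replicate 2 and neither cKO list. WT replicate 2, the longest list, was the one WT library with a call at Bach1.

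The region of the cKO lists was the same in both, on chromosome 16 from 87746828 to 87747075, 13.6 kb beyond the end of Bach1 and inside the noncoding RNA gene Gm32925. Its fold enrichment was 7.42 and 5.10 in cKO replicates 1 and 2 (6.26 ± 1.64, SD, n = 2), from 34 and 22 fragments, with summits 21 bp apart. In cKO replicate 1 465 of 4553 regions had a higher fold, and in cKO replicate 2 1416 of 3088. Both cKO folds exceeded both WT limits, and the nearest WT regions lay 319 kb away in replicate 1 and 46.6 kb away in replicate 2. A fold 0.5 times as high as the weaker cKO fold would pass neither WT limit at median background. Of the 1723 regions of both cKO lists, 46.5% overlapped no WT region, and 3.43% of protein-coding genes had at least 1 such region, so a region of this kind is common among the shared cKO regions.

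The 3 regions of WT replicate 2 at Bach1 stood apart from the cKO site, and 1 of the 3 lay above the median fold of that list, 5.40. A pair lay just inside the gene, with summits 0.759 and 1.14 kb after its start. The first, from 87699545 to 87699801, had 5.84-fold enrichment, and the second, from 87700056 to 87700234, had 3.47-fold. The third lay 63.6 kb beyond the end, from 87796835 to 87797037, with 4.47-fold, again inside Gm32925. Each rested on 17 or 18 fragments at the summit, and none was called in WT replicate 1.

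**Figure D4:**
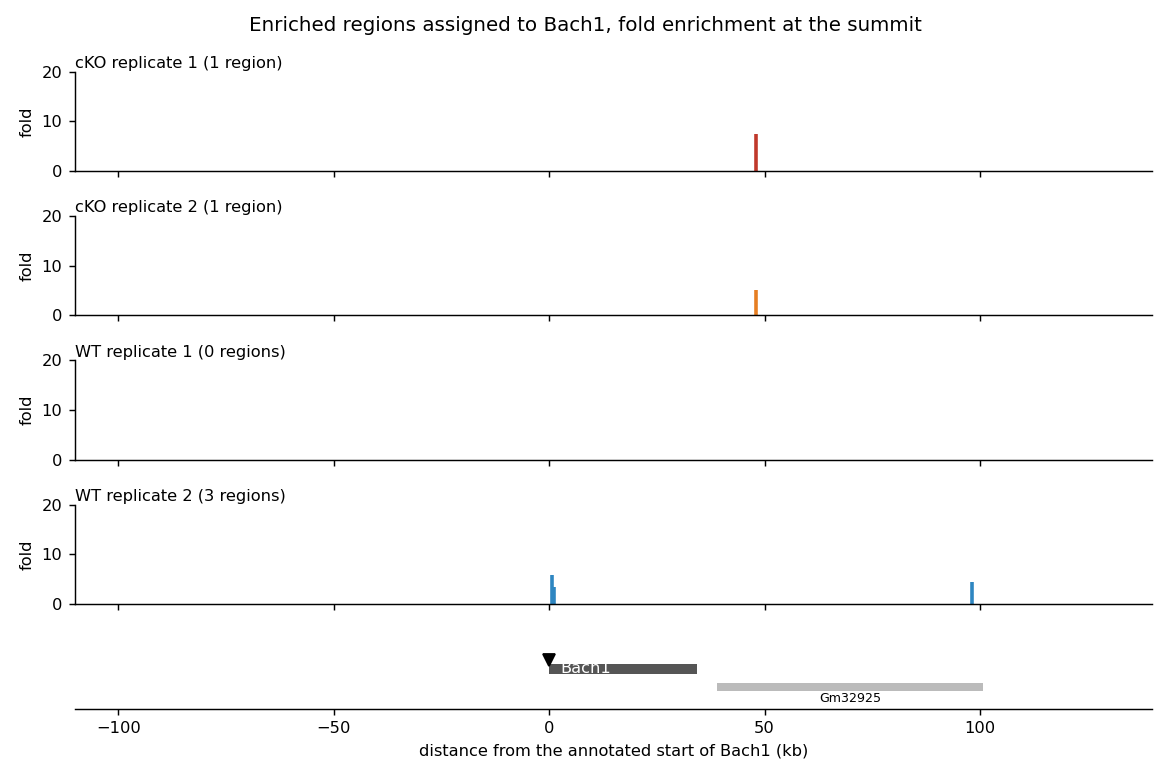
Fold enrichment at the summit (vertical axes) of each region assigned to Bach1, by distance from the annotated gene start in kb, in the 2 cKO and the 2 WT libraries, with the gene body (dark bar), the noncoding gene Gm32925 (light bar) and the start site (triangle). Both cKO lists hold 1 region at the same site, with 7.42 and 5.10-fold enrichment, where neither WT list has one.

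Just outside the rule at Bach1, a region of WT replicate 2 with 4.42-fold enrichment lay 53.3 kb before the gene and 50.3 kb from Map3k7cl, to which it was assigned. Map3k7cl had no other region in any of the 4 lists. Grik1, the kainate receptor gene on the other side, had 0 and 1 regions in the cKO replicates, against 1 and 6 in the WT replicates. Of the 7278 genes with a body 0.5 to 2 times as long as Bach1, 8 had exactly its counts in all 4 libraries, so none is named as most alike.

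**Figure D5:**
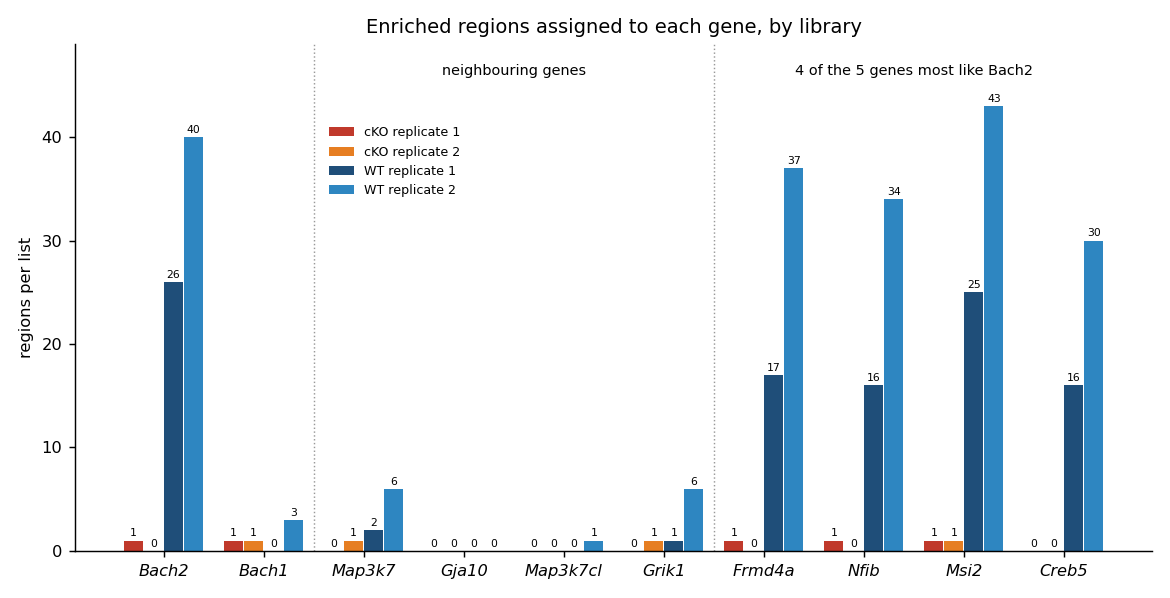
Number of regions per peak list (bars, with the count above each) assigned to Bach2 and Bach1, to the protein-coding gene on each side of them, and to 4 of the 5 genes with counts most like Bach2, in the 2 cKO and the 2 WT libraries. Bach2 has 1, 0, 26 and 40 regions and Bach1 1, 1, 0 and 3, while the genes beside them have 0 or 1 in the cKO lists and 0 to 6 in the WT lists.

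In the wider BACH pathway, 8 of 31 listed partners, relatives, regulators and target or network genes (25.8%) had a region in both WT lists and neither cKO list, against 16.6% of all protein-coding genes. Genes with any region numbered 8 and 4 of 31 in the cKO replicates (25.8% and 12.9%), against 9 and 14 in the WT replicates (29.0% and 45.2%). Over all protein-coding genes the shares were 16.4% and 11.8% in the cKO replicates, against 23.6% and 34.5% in the WT replicates, so the share of the list lay near that of all genes in cKO replicate 2 and somewhat above it in the other lists; these differences were not tested. The median gene of the list had 0 regions in each library, as did the median of all genes. Without WT replicate 1 the 8 became 14, and with gene bodies alone they became 5.

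Among the partners, Mafk, a small MAF gene, had a region in its body with 15.04 and 13.51-fold enrichment in WT replicates 1 and 2 (14.3 ± 1.08), and 0 in the cKO lists. Of the other small MAF genes, Maff had 1 region in cKO replicate 1 alone and Mafg had none. The relatives of the CNC family had no region shared by both WT lists. Nfe2 had 1 and Nfe2l2, which encodes NRF2, had 2, each in WT replicate 2 alone, and Nfe2l1 and Nfe2l3 had 0.

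Among the regulators, Fbxl17, an F-box gene whose protein targets BACH1 for degradation, had 0 and 0 regions in the cKO replicates, against 5 and 7 in the WT replicates, with 24.5 and 26.4-fold enrichment at the strongest (25.4 ± 1.34). Its body of 458 kb is longer than that of Bach2. Cul3, the cullin that acts with KEAP1 on NRF2, had 1 region in both WT lists, 68.3 kb outside the gene, with 17.7 and 32.6. Keap1, Fbxo22 and Hmmr had 0 regions in all 4 lists.

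Of the 7 haem and iron genes, Fech, the gene of the last enzyme of haem synthesis, had 1 and 0 regions in the cKO replicates, against 1 and 4 in the WT replicates. Of these, 1 was found in both WT lists and overlapped no cKO region, with 3.89 and 8.99-fold enrichment. Slc48a1, a haem transporter gene, had 1 region in each cKO list at the same site and 0 in the WT lists. Hmox1, Ftl1, Slc40a1 and Blvrb had 0 in all lists. Fth1, a ferritin gene, had 2 in WT replicate 2 alone. The classical BACH1 target Hmox1 was thus without a call.

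Of the 8 redox genes, Slc7a11, the cystine transporter gene, had 8.02 and 9.50-fold enrichment in WT replicates 1 and 2 at a region 63.9 kb outside the gene, and Nqo1, a quinone reductase gene, had 5.93 and 2.98. Both had 0 regions in the cKO lists. Gclc, a glutathione synthesis gene, had 2 and 2 regions in the cKO replicates, against 1 and 3 in the WT replicates, and Txnrd1 had 2 and 1, against 0 and 5. In these 2 genes the calls were not fewer in every cKO library than in every WT library. Gclm had 1 region in cKO replicate 1 and Sqstm1 had 1 in WT replicate 2. Me1 and Prdx1 had 0.

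Of the 4 lymphocyte genes, Pax5, a B-cell factor gene that also acts in the developing midbrain, had 1 and 0 regions in the cKO replicates, against 2 and 3 in the WT replicates, with 21.0 and 23.3-fold enrichment at the strongest, 5.70 kb outside the gene. Bcl6, a repressor gene, had 2 and 1 in the cKO replicates, against 1 and 4 in the WT replicates. At Bcl6, 1 region was found in both WT lists and overlapped no cKO region, with 5.14 and 8.70-fold enrichment. Another 1 was found in both cKO lists and did overlap a WT region. Prdm1, the gene that BACH2 represses in B cells, and Irf4 had 0 regions in all 4 lists.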

How the data were processed

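Each ChIP library has its own narrowPeak list from the authors; replicates were not pooled. Per the submitters' processing notes the build was mm10 and the tools included Bowtie2 2.2.8 and MACS2 2.1.1, with no settings given. In these deposited lists the enrichment of a peak is a fold over local background, a ratio, and its significance is −log10 of the p-value and of the q-value. The deposited whole-number score restates the q-value and was not used. The 2 input libraries per genotype were not analysed here.

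Only peaks on the autosomes and sex chromosomes were used (Python 3.11.15, numpy 2.4.6, scipy 1.17.1), and 1 bp of overlap counted as shared. A region of both lists is the union of their overlapping peaks, with the strongest fold per replicate. Gene positions came from RefSeq (GRCm38.p6). The lists hold no read totals; the number of fragments at a summit and the background were solved from fold and p-value together, and a whole number fitted, to a tolerance of 0.0001 on the −log10 scale, at 99.86% to 99.96% of the summits of a list. The functions were tested on simulated data. Folds describe peaks within a list and were not compared between genotypes as a measure of change.

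The genes, gene list, motifs and alternatives were chosen with earlier results of these data known. Named were Bach2, Bach1, their neighbours, Prdm16, the pathway list, and the 5 genes of most similar counts, of which 1 is not reported here.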

Additional observations from a re-analysis of the deposited data

How the results depend on the processing

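Of 65 values recomputed, 54 stayed within 1.5 times of the reported count or within 1 SD, and 11 moved. With each list cut to its 3088 most significant peaks, the regions at Bach2 numbered 0 in cKO replicate 1, 6 in WT replicate 1 and 7 in WT replicate 2, with 6 in both WT lists and neither cKO list, and those at Bach1 numbered 0 in WT replicate 2; fewer peaks enter by construction. At this length 2 genes had more regions in both WT lists and neither cKO list than Bach2. Genes with at least as many as Bach2 numbered 6, and genes with at least 1 numbered 1092. With gene bodies alone, Bach1 had 0 regions in both cKO replicates, as the site lies outside the gene, and 5 pathway genes had one. Leaving out 1 library at a time gave 24 to 40 such regions at Bach2, 0 to 3 at Bach1 and 8 to 14 pathway genes, each highest without WT replicate 1, the shorter WT list. The strongest fold then ranged from 17.2 to 18.2 at Bach2 and from 5.10 to 7.42 at Bach1. A stricter q-value, a 50 kb flank and an overlap of at least 0.5 of the shorter interval moved no count by over 1.5 times. No paired analysis was possible because no result comes from a test over samples. The search for motifs around summits was not run, since the sequence of the regions was not analysed here. Counting every line in place of merged ones could not change a count, as 0 lines overlapped another of their list. The lists give no read totals. At 16 of the 24 shared Bach2 regions, 0.5 times the weaker WT fold lies under at least 1 cKO limit at median background.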
